A study of Homo sapiens with 3 samples.

Results

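Hippo pathway and YAP target mRNAs were followed through 3 pull-downs of RNA from lysate of the human bladder cancer line J82. The 10 mRNAs were chosen by gene symbol, with earlier results of these data known, so their shares beside all genes are descriptive. The 10 were CYR61 (also named CCN1), CTGF (also named CCN2), ANKRD1, AMOTL1, AMOTL2, LATS1, LATS2, YAP1, WWTR1 and TEAD1. They are 10 of 52992 genes to which the deposited transcript tables could be joined, and 8 of the 14082 genes with a mean of at least 10 estimated counts over the libraries. AMOTL1 and TEAD1 fell under that mean and are not measured here. The bait was the Ala mutant of ZFP36L1 joined to glutathione S-transferase (GST), the wild-type protein joined to GST, or GST alone. Cells in every group were untreated and near confluence, and the labels do not say which residues of the mutant are alanine. There was 1 library per bait, so nothing could be tested against replicate spread, no p-value was computed, and every interval covers counting error only.

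The Hippo pathway is a kinase cascade that restrains growth. The kinases STK3 and STK4 activate LATS1 and LATS2, which phosphorylate the coactivators YAP1 and TAZ (the product of WWTR1) and keep them out of the nucleus. Unphosphorylated YAP1 and TAZ bind TEAD transcription factors and switch on genes such as CYR61, CTGF and ANKRD1, while LATS2 and AMOTL2 are targets that in turn hold YAP1 back. ZFP36L1, the bait, is a zinc finger protein that binds AU-rich elements in the 3' untranslated region (3' UTR) and promotes decay of the bound mRNA, with UAUUUAU as its core site.

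On GRCh38 the secreted targets CYR61 (ENSG00000142871) and CTGF (ENSG00000118523) lie at chr1:85580761-85583962 and chr6:131948176-131951373, and ANKRD1 (ENSG00000148677) at chr10:90912096-90921276. The feedback regulators AMOTL2 (ENSG00000114019) and LATS2 (ENSG00000150457) lie at chr3:134355874-134375479 and chr13:20973032-21061547, and LATS1 (ENSG00000131023) at chr6:149658153-149718256. The coactivators YAP1 (ENSG00000137693) and WWTR1 (ENSG00000018408) lie at chr11:102110461-102233423 and chr3:149517235-149736714.

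Of the 8 measured mRNAs, 5 carried UAUUUAU in the 3' UTR of their main protein-coding transcript and 3 did not. The windows below show each site of CYR61, ANKRD1 and LATS2 in capitals, with 10 bases on either side, written in DNA letters (TATTTAT) 5′ to 3′ along the mRNA as given by GENCODE 29 (GRCh38). They are shown because CYR61 and LATS2 were among the mRNAs most raised with the wild-type bait, while ANKRD1, with the most sites per length, was not.
CYR61 site 1, chr1:85583560-85583586, plus strand: ctgaatgtttTATTTATcaaaatgtag
CYR61 site 2, chr1:85583654-85583680, plus strand: gaaaagatttTATTTATggaattaacc
ANKRD1 site 1, chr10:90912758-90912784, minus strand: atctagtttcTATTTATcaacgtgttg
ANKRD1 site 2, chr10:90912669-90912695, minus strand: gtgaaactctTATTTATttttatgtat
ANKRD1 site 3, chr10:90912645-90912671, minus strand: tattcctgttTATTTATttactgccac
LATS2 site 1, chr13:20973091-20973117, minus strand: gtttaactatTATTTATtgatatatca

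CTGF, AMOTL2 and YAP1 held no TATTTAT in the 3' UTR, but each held the shorter AU-rich pentamer ATTTA. The pentamers of CTGF and AMOTL2 are shown in capitals, with the same flanks, because both mRNAs were called higher with the wild type than with GST without the longer site.
CTGF pentamer 1, chr6:131949156-131949180, minus strand: agcacaagttATTTAaatctgtttt
CTGF pentamer 2, chr6:131948666-131948690, minus strand: attttttaaaATTTAtattgtaaat
CTGF pentamer 3, chr6:131948596-131948620, minus strand: atctaagttaATTTAaagttgtttg
AMOTL2 pentamer 1, chr3:134357083-134357107, minus strand: gtgaggggccATTTAagtggactgg
AMOTL2 pentamer 2, chr3:134355967-134355991, minus strand: tatcgtaaatATTTAaaatgtaaac

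The 3 libraries held 19153483 (Ala mutant), 19845386 (wild-type ZFP36L1) and 19137867 (GST) estimated counts. Mitochondrial genes took 7.22%, 14.9% and 10.2% of the counts in that order. The mutant and GST libraries resembled each other most (Pearson r 0.96 across genes on log2 CPM, counts scaled to library size, against 0.79 for wild-type ZFP36L1 with GST). The name of the GST table carries another run code than those of the mutant and wild-type tables, so the run and the GST bait cannot be told apart in the ratios over GST. Ratios compare shares of each library, so the amount of RNA that each bait recovered cannot be read from them, and fewer cells with an mRNA and less of it per cell cannot be told apart in a lysate. Of 15 urothelial and epithelial markers 7 were measured, with the highest mean counts for KRT18, KRT8 and KRT7. These keratins were lowest with the wild type, where PPARG led at 73.7 TPM. PPARG, FOXA1 and EPCAM were highest with the wild type, and UPK1A was nearly level across baits. UPK3A, KRT5, KRT19 and KRT20 had no counts in any library. Of 8 mesenchymal markers 6 were measured, TWIST1 had no counts, and VIM, the most abundant, had 635 TPM with the mutant, 67.5 TPM with the wild type and 998 TPM with GST. A further 6 markers of leukocytes, erythroid cells and hepatocytes summed to 9, 0 and 1 counts with the mutant, the wild type and GST.

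Levels are given in TPM, which corrects for transcript length and library size and so allows genes to be compared per length. CYR61, a secreted matricellular protein, was the most abundant of the mRNAs with every bait, at 43.6 TPM with the Ala mutant, 372 TPM with wild-type ZFP36L1 and 64.3 TPM with GST. WWTR1, which encodes the coactivator TAZ, came second when its transcripts were summed. It had 28.9 TPM with the mutant, 64.7 TPM with the wild type and 28.4 TPM with GST. Of the mutant total, 18.04 TPM came from WWTR1-205, a transcript of 584 bases annotated for nonsense-mediated decay. The counts of WWTR1-205 depend on how shared reads were divided. YAP1, the other coactivator, had 9.01 TPM with the mutant, 39.9 TPM with the wild type and 12.4 TPM with GST. The protein-coding WWTR1-203 alone had 7.05 TPM with the mutant, 33.995 TPM with the wild type and 12.18 TPM with GST. These values lay below those of YAP1 with every bait, but with GST inside the YAP1 counting interval (11.74 to 13.02 TPM). CYR61, WWTR1 (summed) and YAP1 were highest with the wild-type bait, and their mutant and GST levels lay far closer together.

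CTGF, a matricellular protein related to CYR61, had 4.38 TPM with the mutant, 42.9 TPM with the wild type and 6.65 TPM with GST. It ranked below YAP1 with the mutant and GST, and above it with the wild type, where its counting interval (41.1 to 44.8 TPM) overlapped that of YAP1 (38.8 to 41.1 TPM) only at the edge. LATS2, a kinase of YAP1, had 3.06 TPM with the mutant, 18.95 TPM with the wild type and 3.93 TPM with GST. AMOTL2, a junction protein that binds YAP1, had 2.39 TPM with the mutant, 15.1 TPM with the wild type and 3.15 TPM with GST. LATS2 exceeded AMOTL2 with each bait beyond the counting intervals.

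LATS1, the partner kinase of LATS2, had 0.578 TPM with the mutant, 3.22 TPM with the wild type and 1.75 TPM with GST. ANKRD1, a nuclear ankyrin repeat protein of stressed muscle and a widely used YAP target, was lowest at 0.512 TPM with the mutant, 1.26 TPM with the wild type and 0.656 TPM with GST. LATS1 and ANKRD1 did not differ beyond their counting intervals with the mutant (0.477 to 0.694 TPM and 0.331 to 0.756 TPM). TEAD1, a transcription factor that YAP1 and TAZ bind, had 0 estimated counts with the mutant, 17 with the wild type and 9 with GST, a mean of 8.67. AMOTL1, a junction protein related to AMOTL2, had 0 counts with every bait, which allows up to 3 counts in each library, or 0.176, 0.150 and 0.159 CPM in the mutant, wild-type and GST libraries.

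**Figure D1:**
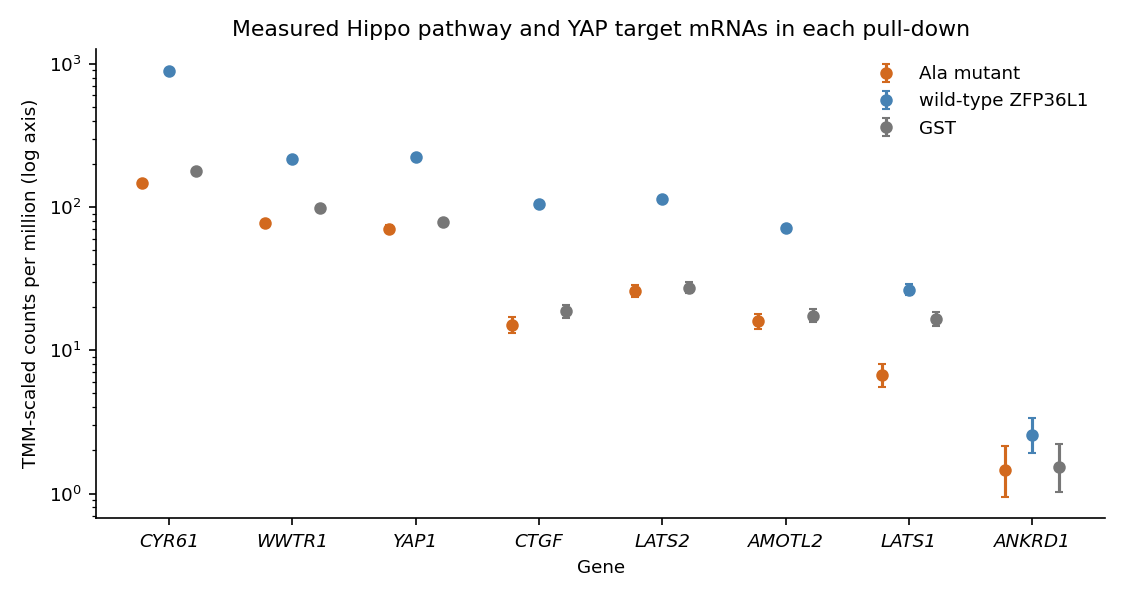
Levels of the 8 measured mRNAs, in TMM-scaled CPM on a log axis, for the Ala mutant, wild-type ZFP36L1 and GST libraries from left to right within each gene; bars are exact 95% Poisson intervals, which cover counting error only, and genes are ordered by TPM with GST. The wild-type point lies above the other 2 for every gene, from 2.56 CPM for ANKRD1 to 888 for CYR61.

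With wild-type ZFP36L1, 6 of the 8 measured mRNAs took at least a 2-fold larger share than with GST, and none a 2-fold smaller one. The 6 were CTGF, CYR61, LATS2, AMOTL2, YAP1 and WWTR1, while ANKRD1 and LATS1 stood above 1 but under 2-fold. A call of higher or lower needed a ratio of at least 2 and a 95% counting interval that excluded 1, after libraries were scaled with TMM, which trims the most extreme genes. Of all 14082 genes 25.5% were called higher and 34.2% lower by this rule. The median log2 ratio of the 8 mRNAs was 1.77, against -0.04 over all measured genes.

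Among the secreted targets, CYR61 had 17697 estimated counts with wild-type ZFP36L1 and 3336 with GST, a 5.01-fold higher share (log2 2.32, 95% interval 2.27 to 2.38). CTGF had 2088 counts with the wild type and 353 with GST and was 5.58-fold higher (log2 2.48, 2.32 to 2.65). Their intervals overlapped, so the counts do not separate these paralogues. As a description, 97.3% of measured genes had a lower ratio than CYR61 and 98.0% a lower one than CTGF. ANKRD1, a target inside the nucleus, had 51 counts with the wild type and 29 with GST (log2 0.72, 0.05 to 1.44), an interval too wide at this depth to place it below or above 2-fold.

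The feedback regulators AMOTL2 and LATS2 had nearly the same ratio. AMOTL2 had 1419 counts with the wild type and 329 with GST, 4.07-fold higher (log2 2.02, 1.85 to 2.20). LATS2 had 2278 counts with the wild type and 515 with GST, 4.18-fold higher (log2 2.06, 1.92 to 2.20). LATS1 stood apart from its paralogue, with 529 counts with the wild type and 311 with GST (1.61-fold, log2 0.68, 0.48 to 0.89), and its interval did not overlap that of LATS2. The coactivators lay between, with YAP1 at 4422 counts with the wild type and 1469 with GST (2.84-fold, log2 1.51, 1.42 to 1.59). WWTR1 had 4338 counts with the wild type and 1843 with GST and was 2.22-fold higher (log2 1.15, 1.07 to 1.23), below YAP1 beyond the counting intervals.

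The YAP1 value rests on transcripts whose deposited length differs from that in GENCODE 29 (by 66 bases for YAP1-202 and 18 bases for YAP1-209). Over the transcripts of equal length, among them YAP1-201 with 0 counts with the wild type and 96 with GST, the log2 ratio turned to -2.76. Of the 31-base words of YAP1-201 only 0.485% occur in neither of the other named transcripts, so this split depends on how kallisto divided shared reads.

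**Figure D2:**
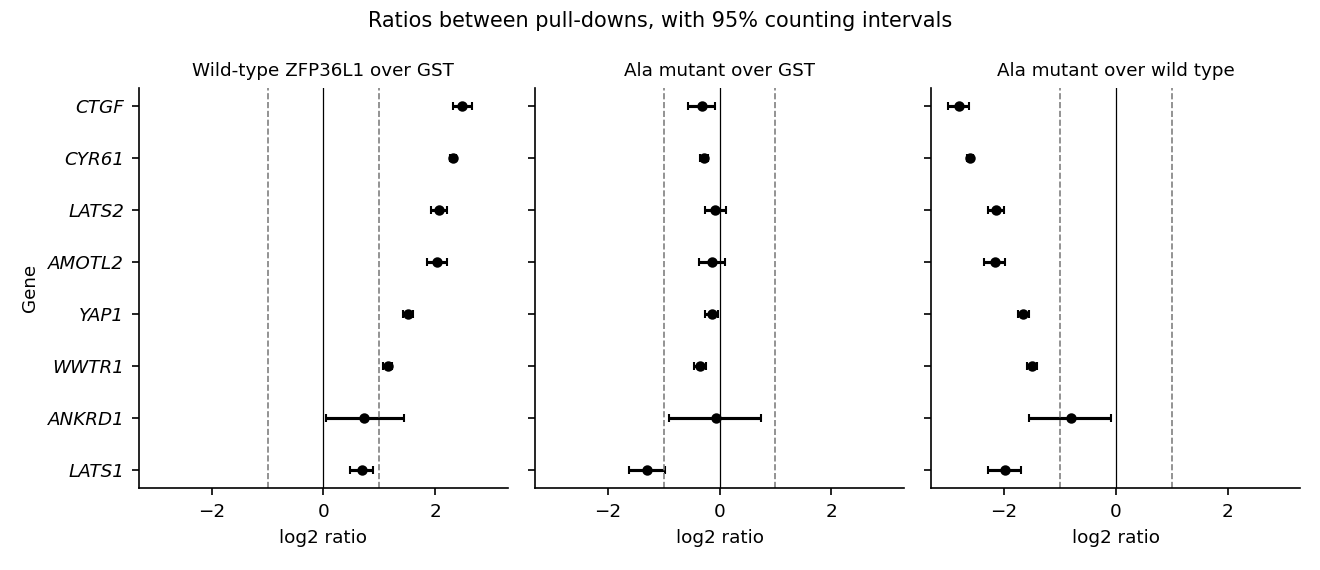
Log2 ratios of the 8 measured mRNAs for wild-type ZFP36L1 over GST, Ala mutant over GST and Ala mutant over wild type, with bars for the 95% counting interval, a solid line at 0 and dashed lines at 2-fold. In the left panel 6 genes lie beyond the right dashed line, in the middle panel LATS1 alone lies beyond the left one, and in the right panel every gene but ANKRD1 lies beyond the left one.

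With the Ala mutant, none of the 8 mRNAs was called higher than with GST and 1, LATS1, was called lower. Over all genes 9.00% were called higher and 5.13% lower. All 8 ratios were under 1, with a median log2 of -0.21 against 0.04 over all genes, although WWTR1 stood at 0.03 when TPM was used, and WWTR1, YAP1 and ANKRD1 stood at 0.09, 0.19 and 0.11 with a fit on GC content and length removed. The share of higher genes among all those called was 63.7% with TMM, 47.5% with total counts, 42.6% with TPM and 38.5% with totals that leave out the most abundant genes.

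LATS1 had 115 counts with the mutant and 311 with GST, so the share with GST was 2.45-fold higher (log2 mutant over GST -1.29, -1.62 to -0.98). Its call ended when TPM with a pseudocount of 1 was used (log2 -0.80). CYR61 had 2493 counts with the mutant and 3336 with GST (log2 -0.28, -0.36 to -0.20). CTGF had 256 counts with the mutant and 353 with GST (log2 -0.32, -0.56 to -0.09). WWTR1 had 1314 counts with the mutant and 1843 with GST (log2 -0.35, -0.45 to -0.24), and YAP1 had 1208 and 1469 counts in the same order (log2 -0.14, -0.25 to -0.03). For these 4 the counting interval excluded 1, and none reached 2-fold. Another scaling moved the median of all genes by -0.14 with total counts and by -0.21 with totals that leave out the most abundant genes, which put CYR61 at -0.42 and -0.49. The intervals of LATS2 (443 counts with the mutant and 515 with GST), AMOTL2 (272 and 329) and ANKRD1 (25 and 29) included 1.

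Compared directly, 7 of the 8 mRNAs took at least a 2-fold smaller share with the Ala mutant than with wild-type ZFP36L1, and none a larger one. Of all genes 30.1% were called lower and 36.1% higher. The median log2 ratio of the 8 was -2.06 against 0.04 over all genes. These are the same 3 libraries as in the ratios over GST, so this comparison is not separate evidence, but the mutant and wild-type libraries share a run code.

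CTGF was lowest, at 256 counts with the mutant against 2088 with the wild type (log2 -2.80, -3.00 to -2.62), followed by CYR61 at 2493 against 17697 (log2 -2.60, -2.67 to -2.54). AMOTL2 stood at log2 -2.16 (-2.35 to -1.97) and LATS2 at log2 -2.14 (-2.29 to -1.99). LATS1, with 115 counts with the mutant and 529 with the wild type, was called lower here (log2 -1.97, -2.28 to -1.69). It was not called between the wild type and GST, where its ratio was under 2-fold (log2 0.68). With the mutant it was also lower than with GST (log2 -1.29). YAP1 stood at log2 -1.65 (-1.74 to -1.56) and WWTR1 at log2 -1.50 (-1.59 to -1.41). ANKRD1 had 25 counts with the mutant and 51 with the wild type (log2 -0.79, -1.56 to -0.09), short of 2-fold under TMM and beyond it (-1.11) when scaled to totals that leave out the most abundant genes.

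The number of UAUUUAU sites did not follow the order of the ratios among these mRNAs. CTGF and AMOTL2, at log2 2.48 and 2.02 for wild-type ZFP36L1 over GST, held 0 sites in 3' UTRs of 1088 and 1828 bases. CYR61 held 2 sites in 920 bases, both in the second part of the 3' UTR, 528 and 622 bases after the stop codon. ANKRD1, with a log2 ratio of 0.72 on few counts, held 3 sites in 770 bases, 92, 181 and 205 bases after the stop codon, of which 2 lay within the longer form UUAUUUAUU. WWTR1 also held 3 sites, spread over 3570 bases, and LATS1 held 1 in 3576 bases.

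The paralogues LATS2 and LATS1 held 1 site each in the 3' UTR, and the LATS2 site, 1763 bases into 1838, lay within UUAUUUAUU. YAP1 held none in 3483 bases, a length at which 60.9% of genes with a 3' UTR within 25% of that length held at least 1. For CTGF and AMOTL2 that share was 26.9% and 39.3%, and for CYR61 and ANKRD1, which held sites, it was 24.6% and 22.4%. The pentamer AUUUA, which UAUUUAU contains, was found in all 8, from 2 in AMOTL2 to 17 in LATS1, and in 67.5% of all 11693 measured genes with an annotated 3' UTR. Of those genes 30.7% held UAUUUAU, and their median log2 for wild type over GST was 0.94, against -0.69 for genes without it. These medians were not adjusted for 3' UTR length or GC content, and the part of the site in their difference was not tested. All searches were on the transcript strand, and a missing match says only that these letters are not in this 3' UTR.

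**Figure D3:**
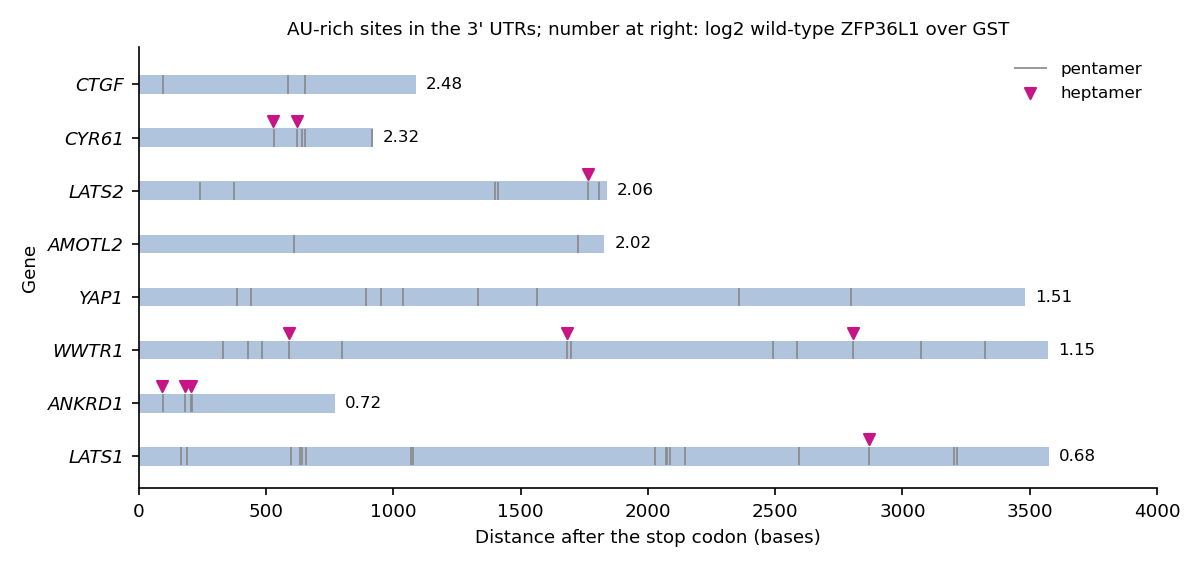
Length of the 3' UTR of the main protein-coding transcript of each measured mRNA, in bases after the stop codon, with triangles at UAUUUAU heptamers and grey lines at AUUUA pentamers; genes run from the highest to the lowest log2 ratio over GST with the wild type, printed at the right. CTGF, at the top with 2.48, and AMOTL2, with 2.02, carry no triangle, while ANKRD1, with 0.72, carries 3.

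The GC content of the transcript differed among the mRNAs and moved with the ratios over all genes. Across 14081 genes the ratio over GST with the wild type was lower at higher GC content (Spearman rho -0.59, with genes as points that are not independent), and that with the mutant was higher (rho 0.54). AMOTL2 (57.2% GC), LATS2 (51.8%), CTGF (51.5%) and CYR61 (50.3%) lay above the median of 48.0% and nevertheless had the 4 highest ratios to GST of the 8. YAP1 (43.4%), ANKRD1 (43.3%), WWTR1 (40.9%) and LATS1 (39.7%) lay below it.

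With a cubic fit on GC content and log2 length removed across all genes, the wild-type over GST value was 3.24 for AMOTL2, 3.07 for CTGF, 2.75 for CYR61 and 2.39 for LATS2. It was 0.68 for YAP1 and 0.08 for WWTR1, which ended their calls, it was 0.26 for ANKRD1, and it turned direction for LATS1 at -0.53. The count called higher was then 4 of 8, beside 22% of all genes. For mutant over wild type the fit left 4 of 8 called lower, beside 23.1% of all genes, and moved WWTR1 to 0.01, YAP1 to -0.49 and LATS1 to -0.25. LATS1 over GST with the mutant moved to -0.78, which ended its call. The part of base composition in these ratios was not tested.

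**Figure D4:**
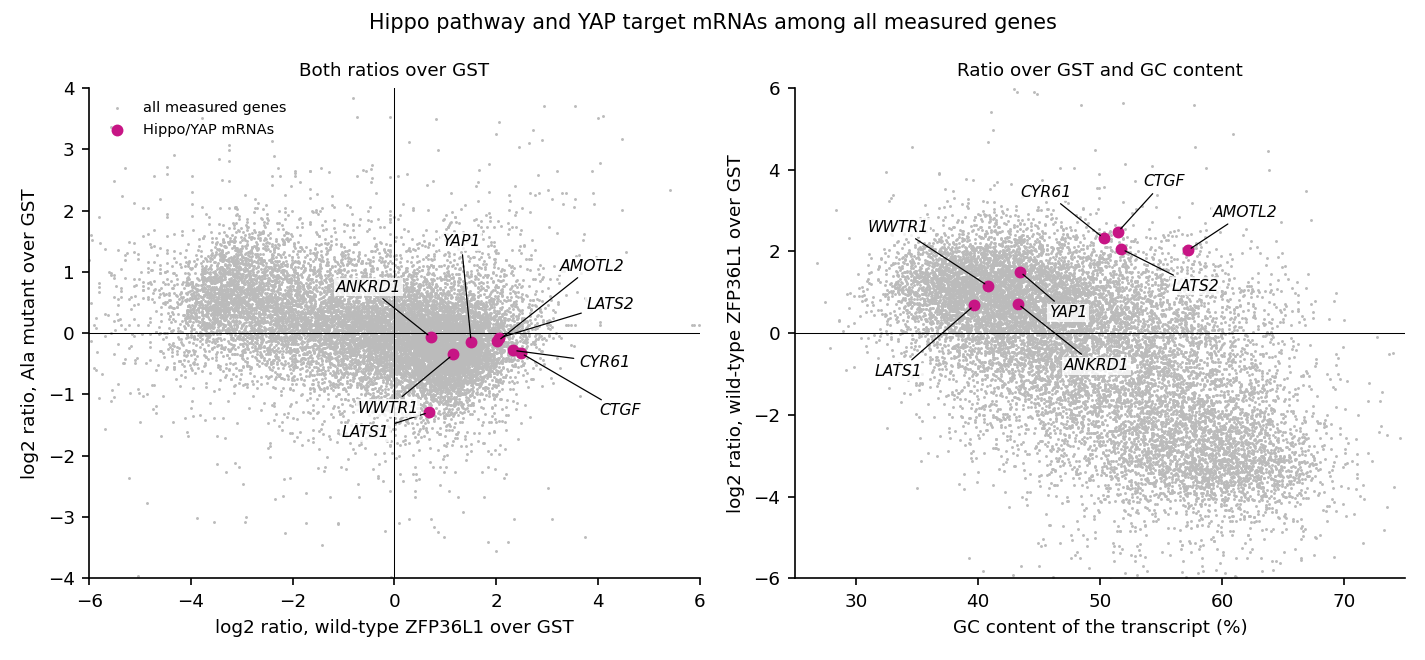
Left: log2 ratio over GST for the Ala mutant against that for wild-type ZFP36L1; right: the wild-type ratio against transcript GC content (%), for all measured genes (grey) and the 8 mRNAs (labelled), with genes beyond the axes not drawn. AMOTL2, CTGF, CYR61 and LATS2 sit above the bulk of genes of their GC content, whereas WWTR1, ANKRD1 and LATS1 sit within it.

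Reads of these genes came mostly from 1 transcript each, except for AMOTL2, whose main transcript differed by bait. CYR61, CTGF, ANKRD1 and LATS2 each had a single transcript with all of their counts, and LATS1-207 held at least 99.2% of the LATS1 counts with every bait. For WWTR1 the protein-coding transcript WWTR1-203, which holds the 3 UAUUUAU sites, had 927 counts with the mutant, 3717 with the wild type and 1452 with GST, a log2 ratio of wild type to GST of 1.27 (1.19 to 1.36). WWTR1-205, annotated for nonsense-mediated decay, 584 bases long and without a site, had 198, 192 and 101 counts in the same order. It stood at log2 0.84 (0.49 to 1.21) for wild type over GST and at log2 1.11 (0.76 to 1.47) for mutant over GST, so unlike WWTR1-203 it was higher with the mutant than with GST. The processed transcript WWTR1-207, also without a site, stood at log2 0.50 (0.28 to 0.72) for wild type over GST. Of the 31-base words of WWTR1-205 only 8.12% occur in neither of the other 2 transcripts, so its counts depend on how kallisto divided shared reads.

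The counts of AMOTL2 were divided between transcripts in a way that differed by bait. AMOTL2-202 had 225 counts with the mutant, 1334 with the wild type and 131 with GST, whereas AMOTL2-201 had 0, 84 and 197 in the same order. AMOTL2-212 had 47 counts with the mutant and none with the other baits. Every 31-base word of AMOTL2-202 occurs in one of the other 2, so this split is uncertain, and none of these 3 held UAUUUAU. Taking AMOTL2-202 alone raised the log2 ratio of wild type to GST to 3.14, and turned that of mutant to GST to 0.87. YAP1-202 held 90.4% of YAP1 counts with the mutant, 94.5% with the wild type and 84.6% with GST.

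On either strand, other genes shared 11.7% of the 31-base words of WWTR1, 11.1% of those of YAP1 and 6.24% of those of CTGF, and at most 2.57% of those of the other measured mRNAs. The antisense genes that overlap CTGF, LATS2 and YAP1 had no counts in any library, and WWTR1-AS1 had 14, 7 and 10 counts with the mutant, the wild type and GST. The pseudogene RPL39P5, which overlaps AMOTL2 on the same strand and shares 2.57% of its 31-base words, had 52, 26 and 56 counts in that order. Strand use in the counting is not given in the sources used here, so reads of a gene and of its antisense partner cannot be told apart.

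The genes whose pattern was most like each mRNA were taken as the nearest by distance in the 2 log2 ratios over GST, over 3 libraries, among protein-coding genes with a mean of at least 100 counts. For CYR61 these were NSUN2, IDH1 and GJA1, at distances of 0.03 to 0.05, and for CTGF NIPSNAP2, ZIC5 and NDUFB5, at 0.02 to 0.05. CYR61 lay 0.16 from CTGF, while AMOTL2 and LATS2 lay 0.07 from each other. For LATS1 the nearest were RNF11, LYPLA1 and GALNT11, and LATS1 lay 1.84 from LATS2.

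Upstream regulators and cofactors of the pathway lay on both sides of 1. Of their ratios of wild type to GST 22 of 33 were above it, beside 6949 of 14082 over all genes. Of 35 listed genes 33 were measured, with a median log2 of 0.71. With wild-type ZFP36L1 9 were called higher and 5 lower than with GST (27.3% and 15.2%, beside 25.5% and 34.2% of all genes). The kinase TAOK3 (log2 1.99), the scaffold STRN (1.87), the kinases TAOK1 (1.76) and STK3 (1.48) and the membrane-linked activator FRMD6 (1.43) were highest. TEAD4, a TEAD transcription factor, was lowest, at 328 counts with the mutant, 13 with the wild type and 208 with GST (log2 wild type over GST -4.03, -5.02 to -3.28). The polarity protein SCRIB (-3.89), the kinase TAOK2 (-2.56), the tumour suppressor RASSF1 (-2.08) and LIMD1, an inhibitor of LATS kinases (-1.36), were the other 4 called lower.

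TEAD2, another TEAD factor, had 1859 counts with the mutant, 2097 with the wild type and 1464 with GST, and was called in no comparison. With the mutant, 3 of the 33 were called lower than with GST and 0 higher (9.09% and 0%, beside 5.13% and 9.00% of all genes). Those called lower were STRN3 (-1.27), FRMD6 (-1.12) and MOB1B (-1.004). Compared with the wild type, 15 were called lower and 5 higher with the mutant (45.5% and 15.2%, beside 30.1% and 36.1% of all genes). Of the 33, 22 held UAUUUAU and 8 of these were called higher with the wild type than with GST, as was 1 of the 11 without it. Over all genes 47.1% of those with the site and 17.8% of those without it were called higher.

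Other genes of a published YAP and TAZ signature were taken without those among the 10 mRNAs, and PTPN14 counts here as well as among the regulators. Of 17 listed 16 were measured, and with wild-type ZFP36L1 6 were called higher and 4 lower than with GST (37.5% and 25%, beside 25.5% and 34.2% of all genes), with a median log2 of 0.58. F3, the tissue factor of coagulation, had 25 counts with the mutant, 134 with the wild type and 28 with GST (log2 wild type over GST 2.16, 1.58 to 2.82). The growth factor TGFB2 (1.69), the exchange factor DOCK5 (1.65), the growth factor binding protein IGFBP3 (1.54), ASAP1, a regulator of ARF GTPases (1.30), and PTPN14, a phosphatase that restrains YAP1 (1.20), were the others called higher. RBMS3, an RNA-binding protein (-3.88), CCDC80 (-2.70), ARHGEF17 (-1.87) and the receptor kinase AXL (-1.05) were called lower, but 0 of the 16 were when TPM was used.

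RBMS3 and CRIM1 were called lower with the mutant than with GST (log2 -3.01 and -1.53), and 0 of the 16 were called higher. As shares these were 12.5% and 0%, beside 5.13% and 9.00% of all genes. Compared with the wild type, 9 of the 16 were called lower and 2 higher with the mutant (56.2% and 12.5%, beside 30.1% and 36.1% of all genes). Of the 12 that held UAUUUAU, 6 were called higher with the wild type than with GST, beside 47.1% of all genes with the site, and 0 of the other 4 were.

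As a list for comparison, 18 mRNAs known to be bound by the ZFP36 family were taken, of which 17 were measured. The list includes ZFP36L1, the gene of the bait, itself called higher with the wild type than with GST (log2 3.48). With the wild type, 15 of the 17 were called higher than with GST (88.2%, beside 25.5% of all genes). Their median log2 was 2.09, against -0.04 over all genes. Of these 17, 16 held UAUUUAU, against 5 of the 8 Hippo pathway and YAP target mRNAs. Among all genes with the site 47.1% were called higher. With 1 library per bait the difference between lists was not tested.

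**Figure D5:**
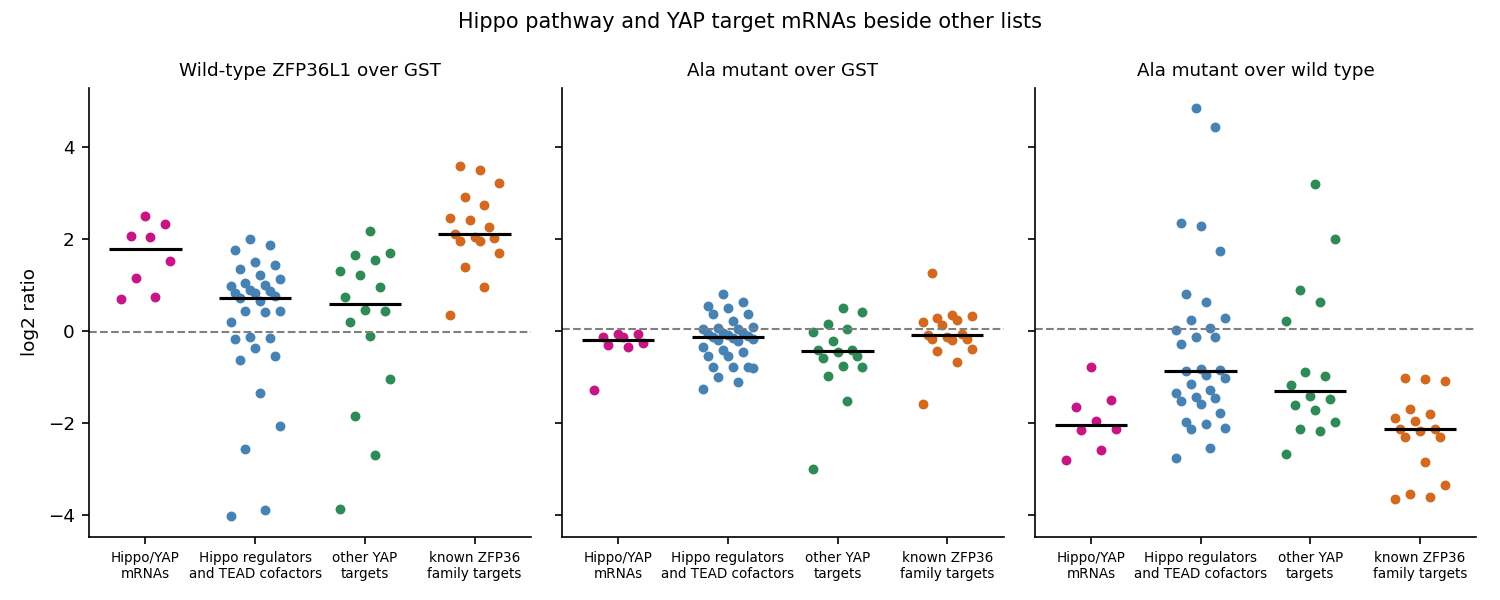
Log2 ratios of the 8 measured Hippo pathway and YAP target mRNAs, 33 Hippo regulators and TEAD cofactors, 16 other YAP targets and 17 known targets of the ZFP36 family in the 3 comparisons; each point is a gene, the black bar is the median of the list and the dashed line the median of all genes. For wild-type ZFP36L1 over GST the medians are 1.77, 0.71, 0.58 and 2.09, and the middle 2 lists hold genes down to -4.03 and -3.88.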

How the data were processed

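Libraries were sequenced on a BGISEQ-500, per the series' design text. The authors used kallisto and DESeq2 with the hg19 build, per the submitters' processing notes; for none of these, nor for the annotation, is a release or setting given in the sources used here. Each deposited table holds an estimated count and a TPM value for each of 196354 transcripts, with length and effective length, per the file headers.

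Transcripts were joined by identifier to GENCODE 29 (GRCh38), which matched 92.6% of them. Estimated counts were summed per gene and rounded, and genes with a mean of at least 10 were kept. Coordinates and sequences are those of GENCODE 29. Libraries were scaled with TMM in edgeR 4.0.16 (factors 0.933 for the mutant, 1.05 for wild type and 1.03 for GST). Log2 ratios used a prior count of 0.5 and exact Clopper-Pearson 95% intervals on the split of both libraries' counts, which cover counting error only. Calls needed a ratio of at least 2 and an interval excluding 1. A single 3' UTR was searched per gene, from its most abundant coding transcript by mean TPM.

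From each pathway list the 5 highest and 5 lowest genes of a comparison were named at most, and the wild-type ratio of PTPN14 and the counts of TEAD2 were added after their values were seen. The members and lists were chosen with earlier results of these data known. PECAM1, a listed marker, was not matched. The computation was tested on simulated data in which few genes changed. Far more genes were called in these libraries, so that test does not bear on the scaling used here. Ratios were recomputed with size factors from DESeq2 1.42.0, with total counts, with totals that leave out mitochondrial genes, rRNA and the top 20 genes, with TPM and pseudocounts of 0.5 and 1, a prior count of 2, no minimum or one of 100 counts, other sets of transcripts, a fold of 1.5, and a fit on transcript GC content and length.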

Additional observations from a re-analysis of the deposited data

How the results depend on the processing

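Hippo pathway and YAP target mRNAs called higher with the wild type than with GST were 6, and numbered 4 to 6 under the alternatives at 2-fold and 8 at 1.5-fold. The 1.5-fold cut also raised the count over all 14082 genes in that comparison, from 3587 to 4927 called higher. None of the Hippo pathway and YAP target mRNAs was called higher with the Ala mutant than with GST or with wild type under any alternative tried. With the fit on GC content and length removed, 4 were called lower with the mutant than with wild type, 0 with the mutant than with GST, and WWTR1 reversed for mutant over wild type, at log2 0.0068. TPM with a pseudocount of 1 also gave 0 called lower with the mutant than with GST. With no minimum, which adds TEAD1, 2 were called lower there. Transcripts of the same length as in GENCODE 29 gave 2 lower there and 1 lower with wild type than with GST, YAP1, which reversed to log2 -2.76 with its most abundant transcripts left out. Among Hippo regulators and TEAD cofactors, 17 were higher with wild type than with GST at 1.5-fold. With mutant over GST, 1 was higher at 1.5-fold and 2 with protein-coding transcripts only, and those lower numbered 6 at 1.5-fold or with totals that leave out the top genes, and 1 with TPM and a pseudocount of 1 or with the fit removed. The fit left 9 lower with the mutant than with wild type. Among other YAP targets, those lower with wild type than with GST numbered 0 with TPM at either pseudocount, and 2 with the fit, a minimum of 100 counts or single transcripts. Those lower with the mutant than with GST numbered 6 at 1.5-fold, 4 with those totals or with transcripts of the same length, and 1 with TPM and a pseudocount of 1 or a minimum of 100. Those higher with the mutant than with wild type numbered 5 with protein-coding transcripts only, 1 with TPM and a pseudocount of 0.5, the fit, a minimum of 100 or single transcripts, and 0 with TPM and a pseudocount of 1. Over all genes, those higher with the mutant than with GST were 1268, but 416 with TPM and a pseudocount of 1 and 2629 (18.7%) at 1.5-fold. Those lower were 722, but 362 with a minimum of 100 and 1829 (13.0%) at 1.5-fold. With the fit, genes lower with wild type than with GST were 2985 in place of 4821, and those higher with the mutant than with wild type 3302 in place of 5077. Where not stated, the cause was not tested. No paired analysis was possible because each bait has 1 library, and for the same reason no replicate could be left out. Depth limits ANKRD1, at 25 to 51 counts per library, and TEAD1 and AMOTL1 could not be measured.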
